A study of Mus musculus with 16 samples.

Results

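The genes described here are the high-numbered Zfp genes of the mouse, those whose symbol is Zfp followed by a number of 600 or more, with or without a final letter. They were selected on their level: a gene was kept if its mean over the 8 input libraries was at least 10 counts. Of 185 such genes in the count table of 46983 genes, 162 met this rule and are called members. The rule used input counts only and no difference between groups. The members nearest to the threshold were Zfp773, with a mean of 13.9 counts per input library, and Zfp697, with 14.5. The nearest genes outside it were Zfp608 and Zfp879, each with 5.50 counts. The test filter of at least 1 CPM (a gene's counts relative to its library's total, with TMM factors for the values printed here) in at least 10 of the 16 libraries passed 154 members, and it passed 154 high-numbered Zfp genes without the level rule as well. The 8 members that were not tested were Zfp651, Zfp697, Zfp773, Zfp783, Zfp784, Zfp791, Zfp972 and Zfp983, with means between 13.9 and 92.1 counts per input library.

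RNA was sequenced from 46C mouse ESCs, a line of strain 129Ola that carries GFP at the Sox1 locus, cultured on gelatin with LIF. All cells were transfected for 48 hr, either with RAM siRNA or with a non-targeting control siRNA. RAM, encoded by Ramac, is the activating subunit of the mRNA cap methyltransferase RNMT. From each transfection a library was made of the cytoplasmic lysate (input) and another of the pooled polysome fractions, which gave 4 groups of 4 libraries, and the study describes 4 independent occasions of 1 cell line. The comparisons ask whether RAM siRNA changes the transcripts of a gene in input, in polysomes, or in polysomes relative to input.

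Most members belong to the large family of C2H2 zinc finger proteins, in which tandem fingers read DNA. Many carry a KRAB (Krüppel-associated box) domain, which recruits the co-repressor Trim28 and, through it, Setdb1 and heterochromatin proteins. In ESCs this system is best known for silencing endogenous retroviruses. KRAB zinc finger genes arose by repeated local duplication, so that many lie side by side in clusters and are similar in sequence. Not every Zfp symbol names such a repressor. Zfp638 binds RNA and DNA in the nucleus, and Zfp622 takes part in the maturation of the large ribosomal subunit in the cytoplasm.

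Libraries held between 16647523 and 20147833 counts. Ramac had between 197 and 206 counts in control input and between 46 and 58 in RAM siRNA input, so the siRNA labels and the targeted transcript went together. All 16 of the listed ESC markers were tested, with means of at least 1.08 CPM (Dppa3) in each input group. Of the markers of other cells, 3 of 10 for fibroblasts, 6 of 10 for primitive endoderm and 4 of 10 for neural progenitors were tested, and Lum of the fibroblast list and Ttr of the endoderm list had 0 counts in every input library. In input the summed level of the fibroblast list was between 20.6 and 24.2 CPM in control cells and between 23.8 and 33.6 CPM after RAM siRNA, and that of the primitive endoderm list was between 684.1 and 921.4 CPM and between 460.9 and 733.6 CPM. Most of the latter sum was Lama1, with means of 823.6 and 619.0 CPM and an adjusted p of 0.143 (edgeR). Gata6 and Dab2 of that list rose from 2.78 and 3.23 CPM (log2 fold changes 0.61 and 0.55), and Sox7 had -0.77 (adjusted p = 0.0573, edgeR). With the replicate number as a block 3 of the 6 tested genes of that list were higher and 2 lower. Of the 3 tested fibroblast genes 1 was higher without and 2 with the block. The sum of the neural list was between 69.7 and 83.3 CPM and between 73.7 and 87.0 CPM. Of its 4 tested genes 0 were called without the block, and with it Pax6 was lower and Nes higher. In input 4 of 16 ESC markers fell after RAM siRNA, and with the block 11 were lower and 1 was higher, where 12.9% of all genes tested were called in either direction without and 39.3% with the block. Of 13 genes of the 2-cell-like state 6 were tested, and all 6 rose, with a median log2 fold change of 1.04. The part of these shifts in the members' values was not tested. The polysome library of RAM siRNA replicate 2 stood apart, with a correlation of 0.8335 over genes with replicate 4 of its group, where control polysome libraries had at least 0.934 with each other.

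In the GENCODE annotation of GRCm38, 159 members are protein-coding genes and 3, Zfp640, Zfp783 and Zfp939, are transcribed pseudogenes. A KRAB pattern was found in the longest open reading frame of 105 members and not in 54. The number of C2H2 fingers ranged from 0 to 33, with a median of 11. Grouped by distances of at most 1 Mb between neighbours, 110 members lay in 16 clusters of at least 3. The most populous was on chromosome 4 (chr4:145510759-147848366), with 17 members from Zfp990 to Zfp933. Another, on chromosome 13 (chr13:66669928-67687071), held 10 members from Zfp640 to Zfp738. Windows of 75 bases, the length of each read of a pair, were shared with another gene for a median of 54.8% of the windows of the chromosome 4 members, against 4.92% in the chromosome 13 cluster and 0.40% over all members. Counts of chromosome 4 members are uncertain for this reason, since how the counting treated such reads is not given in the sources used here.

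The promoters of these 2 clusters are shown because most members of each share a short run of bases, and because input values after RAM siRNA are described by cluster further on. Promoters came from RefSeq (GRCm38.p6) and were available for 139 members. The motif GAANTGTAG, where N is any base, was searched on both strands from 250 bases before to 50 bases after the start. These letters are part of the longer site known for the zinc finger activator Zfp143. The motif was present in 523 of 27025 genes with a promoter (1.94%), in 318 of 9736 tested genes (3.27%), in 15 of 139 members (10.8%) and in 34 of 172 Zfp genes numbered under 600 (19.8%). Among members with a KRAB pattern it was present in 14 of 94, and among all other members, pseudogenes included, in 1 of 45. In the chromosome 13 cluster it was present in 8 of 9 promoters, and 0 of 14 held it in the cluster of chromosome 17 around Zfp943. Below are the 100 bases before the start of 6 members of the chromosome 13 cluster and of Zfp605 on chromosome 5, with the motif in capitals.
Zfp953 (chr13:67360573-67360672, minus strand): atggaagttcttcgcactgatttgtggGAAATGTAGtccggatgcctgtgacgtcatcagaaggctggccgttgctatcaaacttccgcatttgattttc
Zfp874a (chr13:67451625-67451724, minus strand): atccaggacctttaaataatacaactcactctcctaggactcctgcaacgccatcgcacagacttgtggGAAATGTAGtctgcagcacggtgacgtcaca
Zfp874b (chr13:67484254-67484353, minus strand): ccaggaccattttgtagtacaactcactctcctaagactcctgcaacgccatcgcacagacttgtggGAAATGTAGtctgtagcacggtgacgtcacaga
Zfp738 (chr13:67683513-67683612, minus strand): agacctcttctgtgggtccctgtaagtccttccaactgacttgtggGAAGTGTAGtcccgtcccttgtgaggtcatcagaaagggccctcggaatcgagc
Zfp729a (chr13:67637782-67637881, minus strand): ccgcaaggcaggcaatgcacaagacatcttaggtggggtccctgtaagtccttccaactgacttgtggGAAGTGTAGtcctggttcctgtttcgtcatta
Zfp748 (chr13:67553153-67553252, minus strand): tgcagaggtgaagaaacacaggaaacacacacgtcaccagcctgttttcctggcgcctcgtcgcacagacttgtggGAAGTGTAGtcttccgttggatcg
Zfp605 (chr5:110109992-110110091, plus strand): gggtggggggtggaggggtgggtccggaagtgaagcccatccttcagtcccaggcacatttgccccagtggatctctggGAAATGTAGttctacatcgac

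In all 7 the motif stood on the strand of the gene, with its first base between position -73 in Zfp953 and position -21 in Zfp605 relative to the start. The remaining promoters of the cluster with the motif were those of Zfp712 and Zfp759, and the promoter of the pseudogene Zfp640 lacked it. The chromosome 4 cluster shared another run. The longest run found before the start of at least 8 of its genes was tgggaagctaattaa, of 15 bases. It was present, on either strand, in 12 of 27025 genes (0.0444%), all on chromosome 4, and 9 of these were members: Zfp600, Zfp979, Zfp980, Zfp981, Zfp982, Zfp984, Zfp985, Zfp987 and Zfp988. The run was found in these promoters and then counted, so its rarity is a description. The bases from the run to the start of 4 of them follow, with the run in capitals.
Zfp600 (chr4:146156692-146156826, plus strand): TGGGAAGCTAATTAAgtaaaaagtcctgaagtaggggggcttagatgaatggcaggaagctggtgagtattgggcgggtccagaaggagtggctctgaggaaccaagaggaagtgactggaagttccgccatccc
Zfp979 (chr4:147642509-147642649, minus strand): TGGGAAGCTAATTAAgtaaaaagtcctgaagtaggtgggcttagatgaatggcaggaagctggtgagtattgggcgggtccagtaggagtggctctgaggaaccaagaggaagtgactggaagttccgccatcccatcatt
Zfp982 (chr4:147492266-147492416, plus strand): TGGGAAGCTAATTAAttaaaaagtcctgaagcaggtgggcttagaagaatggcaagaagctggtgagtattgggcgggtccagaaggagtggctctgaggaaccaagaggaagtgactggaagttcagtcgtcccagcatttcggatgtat
Zfp985 (chr4:147553141-147553276, plus strand): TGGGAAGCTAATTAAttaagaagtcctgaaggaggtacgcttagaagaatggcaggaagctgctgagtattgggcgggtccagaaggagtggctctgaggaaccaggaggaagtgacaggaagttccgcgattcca

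In control input the tested members had a median level of 15.9 CPM, between 1.58 CPM for Zfp939 and 170.4 CPM for Zfp990, where the median of all genes tested was 26.6 CPM. Of the 154 members, 20 had under 5 CPM, 68 had 5 to 20, 57 had 20 to 100 and 9 had 100 or more. All members together took between 0.434% and 0.486% of the counts of a control input library. The members with the highest level were Zfp990 (170.4 ± 13.1 CPM, SD, n = 4 libraries), Zfp740 (165.1 ± 17.6), Zfp638 (160.0 ± 12.04), Zfp961 (157.0 ± 7.18) and Zfp979 (156.0 ± 11.8). Neighbours in this order differed by less than their SD. Per kilobase of exon the order was Zfp990 with 48.7 CPM per kb, Zfp979 with 37.9, Zfp961 with 36.2 and Zfp978 with 33.4, so that 3 of the 4 were from the chromosome 4 cluster. Zfp809, which binds the primer binding site of murine leukemia virus and is needed for its silencing in ESCs, had 38.1 ± 3.60 CPM. Trim28 itself had 1024 ± 95.9 CPM.

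In control cells the members were lower in polysomes than in input. Of 154 tested members, 106 were lower (68.8%) and 4 were higher in polysomes (edgeR's quasi-likelihood test, 4 against 4 libraries, adjusted p under 0.05), where 34.3% of all genes tested were lower and 33.1% were higher. The median log2 fold change of the members was -0.62, a ratio of 0.651, and that of all genes was 0.00. With the replicate block 115 members were lower and 4 higher, beside 37.2% and 35.1% of all genes. The members' share of the library was between 0.434% and 0.486% in control input and between 0.240% and 0.309% in control polysomes, and these ranges did not overlap. The median log2 ratio was negative in each of the 4 same-numbered pairs of libraries, at -0.46, -0.41, -0.56 and -0.72. Zfp genes numbered under 600 had 108 of 187 lower (57.8%) and 11 higher, with a median of -0.56. In the plot of polysome over input, the curves of both Zfp groups lie to the left of that of all genes except among the lowest values, where they meet it.

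**Figure D1:**
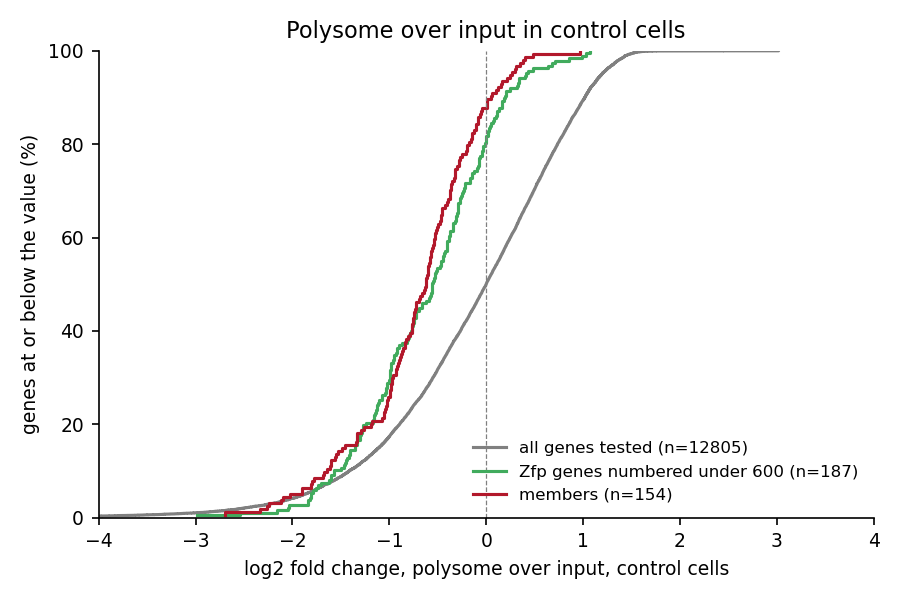
Cumulative share of genes (vertical axis, percent) against the log2 fold change of polysome over input in control cells (horizontal axis) for 12805 genes tested, 187 Zfp genes numbered under 600 and 154 members. The members' curve crosses 50% at -0.62 and that of all genes at 0.00.

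The tested members with the largest falls in polysomes were Zfp866, Zfp704, Zfp652, Zfp827 and Zfp970. The test filter asks for more libraries than the 8 of input, so a member scarce in polysomes could fail it. Among the 8 members not tested, Zfp783 and Zfp651 had 0.456 and 0.522 CPM per kb in control input. In control polysomes they had 0.045 and 0.114. Zfp773 and Zfp791 went the other way. Zfp866, a KRAB member on chromosome 8 (chr8:69761326-69791178), had 35.9, 34.5, 36.1 and 34.7 CPM in the control input libraries and 7.65, 5.84, 4.43 and 5.24 CPM in the control polysome libraries. No polysome library came near the input level, and the log2 fold change was -2.70 (SE 0.16, adjusted p = 2.515e-07, edgeR). Zfp704, a member with 1 recognised finger that is expressed at 103.2 ± 10.1 CPM in input, had 17.1 ± 4.47 CPM in polysomes (log2 fold change -2.69, SE 0.18, adjusted p = 5.71e-07). Zfp652 had 53.3 ± 1.56 CPM in input and 11.3 ± 1.87 CPM in polysomes, a log2 fold change of -2.33. Zfp827 and Zfp970 had log2 fold changes of -2.26 and -2.24. Of the 75-base windows of Zfp970, 30.35% are shared with other genes, and its polysome values spread from 2.16 to 7.60 CPM.

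**Figure D2:**
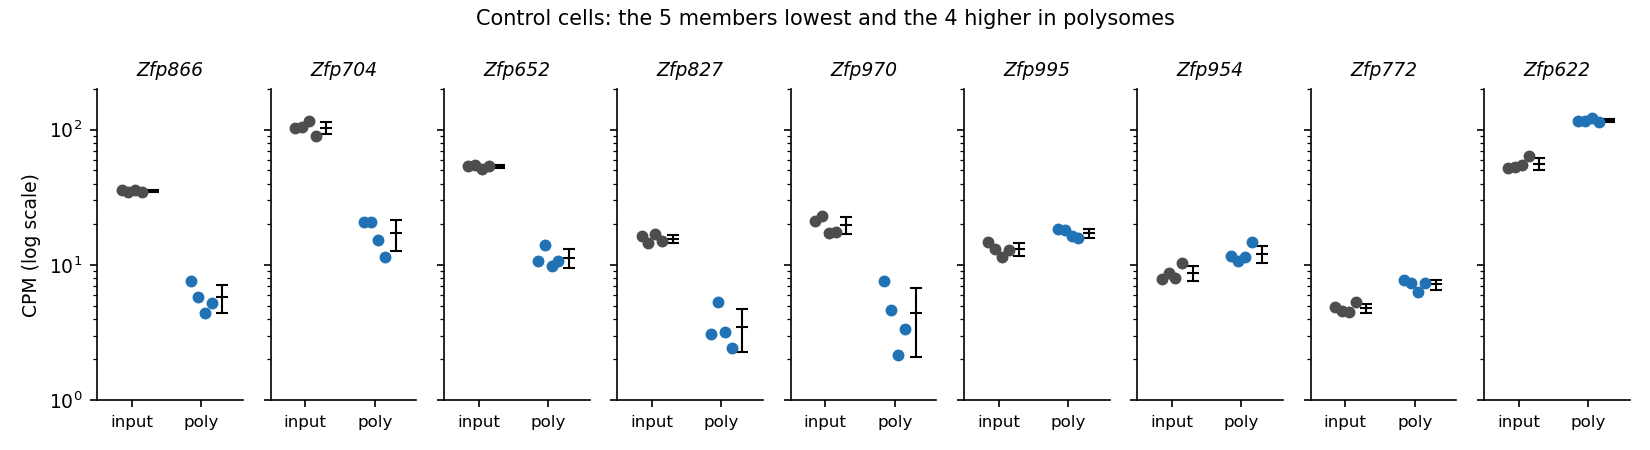
CPM on a log scale in the 4 control input and 4 control polysome libraries for the 5 tested members lowest and the 4 higher in polysomes. Points are libraries, and the bar beside them is the mean with SD; input and polysome points overlap for none of the 9 genes.

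The 4 tested members called higher in polysomes were Zfp622, Zfp772, Zfp954 and Zfp995. Zfp622, the ribosome maturation factor, had 52.3, 52.7, 55.2 and 63.9 CPM in input and 116.2, 116.3, 122.1 and 114.8 CPM in polysomes. Every polysome library lay above every input library, and the log2 fold change was 0.97 (SE 0.11, adjusted p = 1.28e-05, edgeR). Zfp772 and Zfp954 lie in the same cluster of chromosome 7 and both carry a KRAB pattern and 9 fingers; their log2 fold changes were 0.49 and 0.38. For Zfp995 the value was 0.30. The calls of Zfp954 and Zfp995 were lost when libraries were scaled by their total counts alone (adjusted p = 0.124 and 0.155).

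The members of highest level in input varied in this ratio. Zfp990 and Zfp979, of the chromosome 4 cluster, had log2 fold changes of 0.01 (SE 0.14) and -0.04 (SE 0.11), neither past the threshold. Zfp740 fell by 1.80 on the log2 scale, from 165.1 to 50.7 CPM, and Zfp961 by 0.93, from 157.0 to 87.8 CPM. Zfp638 had 91.8 ± 48.95 CPM in polysomes, with 157.2 CPM in replicate 2 and between 47.3 and 100.0 CPM in the others, and a log2 fold change of -0.90 (adjusted p = 0.0188, edgeR).

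Members with and without a KRAB pattern had similar shares. The pattern was searched in an open reading frame, and members without it were not shown to lack the domain. Zfp729a, for example, had the pattern and Zfp729b did not. Of 103 tested members with the pattern, 70 were lower in polysomes, and of 49 without it, 34 were lower, with medians of -0.60 and -0.72. Members with exons longer in sum than the members' median were lower in 62 of 76 cases (median -0.83), and those at or below it in 44 of 78 (median -0.53). Across the 154 members, which share their libraries, the log2 fold change had a Pearson's r of -0.34 and a Spearman's rho of -0.33 with the log2 exon length, and of 0.02 and 0.04 with the log2 level per kb. By cluster, all 8 tested members of the cluster of chromosome 17 around Zfp871 and all 6 of a cluster on chromosome 7 around 27 Mb were lower, against 0 of 4 in the cluster with Zfp772. In the chromosome 13 cluster 9 of 10 were lower (median -0.95), and in the chromosome 4 cluster 9 of 17 (median -0.52).

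After RAM siRNA few members passed the test in input in the fit without the replicate block. Of 154 tested members 4 were lower (2.60%) and 0 were higher, where 5.94% of all genes tested were lower and 6.95% were higher (edgeR's quasi-likelihood test, adjusted p under 0.05). The median log2 fold change was -0.02, and 86 members had a negative and 68 a positive value. Without RAM siRNA replicate 4 the median was 0.0153, with 74 negative values. At an unadjusted p under 0.05 the counts were 10 lower and 7 higher, 17 of 154 members, against 28.0% of all genes. With the replicate number as a block, which pairs same-numbered libraries, 19 members were lower and 12 were higher, 31 of 154 in either direction, beside 39.3% of all genes (2433 lower and 2595 higher). The labels do not say whether equal numbers mark the same occasion. The 19 included all 4 that were lower without the block. By DESeq2, 4 were lower and 2 higher.

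The 4 members that fell in input without the block were Zfp605, Zfp652, Zfp953 and Zfp874b. Zfp605, a KRAB member with 12 fingers (chr5:110110092-110129794), had 15.35, 14.3, 13.7 and 14.6 CPM in control input and 11.8, 11.1, 9.92 and 10.1 CPM after RAM siRNA. The groups did not overlap, and the log2 fold change was -0.38 (SE 0.09, adjusted p = 0.0193, edgeR). Zfp652 (chr11:95712673-95835115), whose protein has 7 fingers and no KRAB pattern, had 53.8, 54.8, 51.1 and 53.6 CPM in control input and 42.8, 42.5, 38.35 and 37.7 CPM after RAM siRNA. Again every RAM siRNA library was below every control library, with a log2 fold change of -0.35 (SE 0.07, adjusted p = 0.00764, edgeR). The annotation places Phospho1 on the same strand within Zfp652, and 11.4% of the windows of Zfp652 are shared with other genes.

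Zfp953 and Zfp874b both lie in the chromosome 13 cluster. Zfp874b had 15.35, 14.8, 14.8 and 15.4 CPM in control input and 11.98, 10.9, 11.03 and 12.15 CPM after RAM siRNA (log2 fold change -0.33, SE 0.08, adjusted p = 0.0202, edgeR). Zfp953 had 13.6, 14.4, 11.9 and 11.65 CPM in control input and 10.4, 9.49, 10.1 and 9.02 CPM after RAM siRNA (log2 fold change -0.35, SE 0.10, adjusted p = 0.0461, edgeR). For both, the groups did not overlap. The call of Zfp652 held with each of the 8 input libraries left out in turn, whereas those of the other 3 were lost without control replicate 1 (adjusted p between 0.0647 and 0.130) and without RAM siRNA replicate 3 (adjusted p between 0.0505 and 0.0675). That of Zfp874b was also lost without control replicate 4 (adjusted p = 0.0517) and without RAM siRNA replicate 2 (adjusted p = 0.0615), and that of Zfp953 without control replicate 2 and RAM siRNA replicates 1, 2 and 4 (adjusted p between 0.0649 and 0.135, all by edgeR). With all 16 libraries in a single fit, where input shares its spread with polysomes, 0 members were called.

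**Figure D3:**
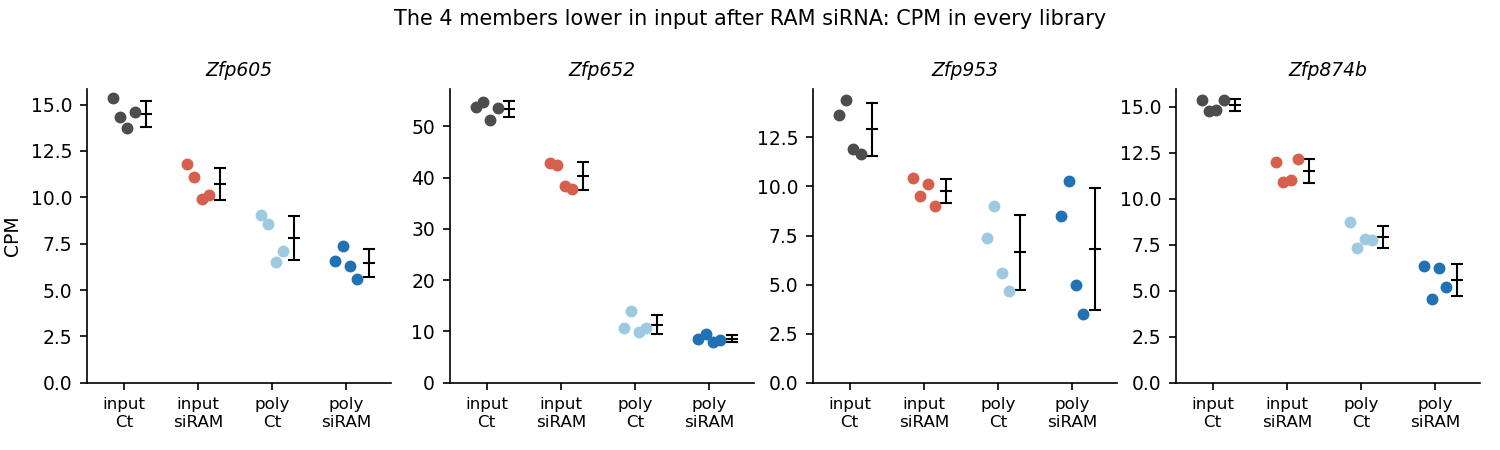
CPM in each of the 16 libraries for the 4 members that fell in input after RAM siRNA (Ct, control; siRAM, RAM siRNA; poly, polysome). Points are libraries and the bar beside them is the mean with SD; in input each RAM siRNA point lies below each control point, and in polysomes the groups of Zfp605 and Zfp953 overlap.

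By cluster, the values of the chromosome 13 members were all negative and most of those of the chromosome 4 members were positive. All 10 members of the chromosome 13 cluster had a negative log2 fold change in input, between -0.35 and -0.04, with a median of -0.16. In polysomes 5 of them were negative and 5 positive, with a median of -0.01. Of the 10 members, 2 were lower in input without and 4 with the replicate block, where 761 and 2433 of all 12805 genes tested were lower. The added genes were Zfp874a (12.3 CPM in control input, log2 fold change -0.35) and Zfp729b (33.2 CPM, -0.16), of whose windows 38.8% are shared. Zfp874a and Zfp874b are close copies, and 8.34% of the windows of Zfp874b are shared with other genes. The chromosome 4 cluster had 11 positive and 6 negative values in input and a median of 0.09. None of its 17 members was called without the block (edgeR). With it, where 20.3% of all genes tested were higher, Zfp600, Zfp978, Zfp982 and Zfp987 were higher. These became 3 genes with RLE scaling and 2 with scaling by total counts. Zfp982, the one of these with few shared windows (4.93%), had 29.45, 27.2, 22.6 and 31.1 CPM in control input and 35.4, 31.6, 30.7 and 29.3 CPM after RAM siRNA. It was higher in 3 of 4 pairs, with a log2 fold change of 0.26 and an adjusted p of 0.108 without and 0.00434 with the block (edgeR). These clusters and genes were picked after their values were seen. The sign counts of both clusters were the same under TMM, RLE and total-count scaling. Some other clusters had similar values in input. Around 127 Mb of chromosome 7, 7 of 9 members were negative (median -0.16), and so were all 3 of another chromosome 13 cluster. On chromosome 6, 4 of 5 were positive (median 0.15).

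**Figure D4:**
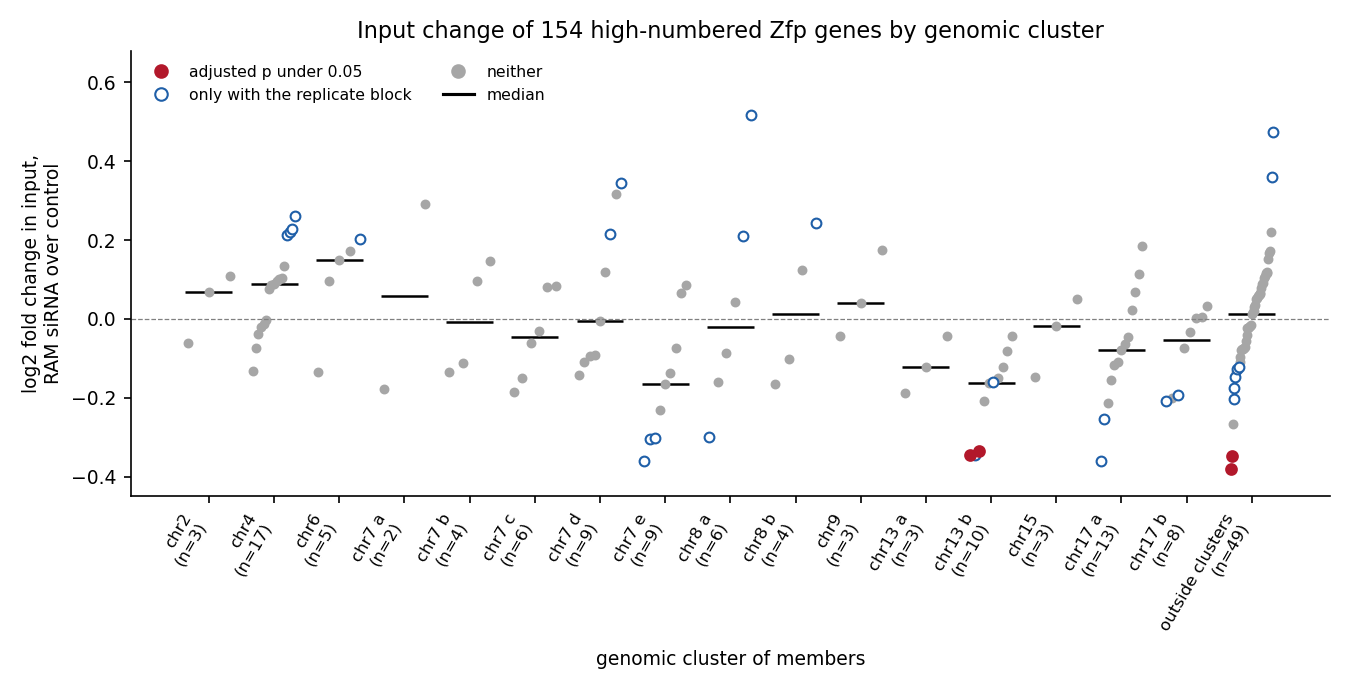
Log2 fold change in input, RAM siRNA over control, of 154 members (points) by genomic cluster; letters number clusters along a chromosome, and horizontal lines are medians. Filled red points passed the test (4 members, all lower), and open blue points passed it with the replicate block only. All 10 points of the cluster chr13 b and all 3 of chr13 a lie below 0.

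With the block, Zfp689, Zfp768 and Zfp771 of the cluster on chromosome 7 around 127 Mb were lower, as were Zfp799 and Zfp871 of one cluster and Zfp943 and Zfp994 of another on chromosome 17. Of 9 members in another cluster of chromosome 7, Zfp788 and Zfp936 were higher. The remaining clusters held 1 lower and 4 higher members. Of 49 tested members outside clusters, 7 were lower and 2 were higher with the block. Beside these counts by cluster, 2433 of all 12805 genes tested were lower and 2595 higher in input with the block. The highest log2 fold changes of all tested members were those of Zfp964 (0.52, 1.74 CPM in control input), Zfp618 (0.47, 3.29 CPM), Zfp692 (0.36, 20.1 CPM) and Zfp788 (0.34, 13.1 CPM). In that order, their adjusted p-values were 0.147, 0.0748, 0.05425 and 0.0512 in the unblocked fit. Blocked, they were 0.0497, 0.0139, 0.000947 and 0.00267 (edgeR).

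Members with the promoter motif had a median log2 fold change of -0.13 in input, with 12 negative and 3 positive values, and the 116 tested members with a promoter and no motif had a median of -0.02, with 62 negative and 54 positive. Of the 15 with the motif, 8 were from the chromosome 13 cluster, whose 10 members were all negative, so motif and cluster were not told apart. The motif was chosen with earlier results of these data known, and a link between it and the input change was not tested. Of the 4 members that fell, Zfp605, Zfp953 and Zfp874b held the motif and Zfp652 did not. With the block, 4 of 17 lower members and 1 of 11 higher members with a promoter held it.

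Members fixed by name, for a known role or for their cluster, mostly passed neither fit in input. Of all genes tested, 12.9% were called without and 39.3% with the block. Zfp809 had 38.1 ± 3.60 CPM in control input and 37.7 ± 4.01 CPM after RAM siRNA, with a log2 fold change of 0.04 (SE 0.10). Zfp638 had a log2 fold change of -0.10 (SE 0.07), Zfp961 of -0.10 (SE 0.07) and Zfp704 of -0.01 (SE 0.11). Zfp706, a small protein with a single finger, had 147.1, 138.3, 131.2 and 168.8 CPM in control input and 115.7, 115.6, 111.4 and 147.1 CPM after RAM siRNA. It was lower in each of the 4 pairs although the groups overlapped, with an adjusted p of 0.203 without and 0.000797 with the block (edgeR). Of the 24 tested members fixed by name, 6 passed with the block only. Beside Zfp706 these were Zfp655 (log2 fold change -0.15), Zfp710 (-0.13) and Zfp768 (-0.36), which were lower, and Zfp600 (0.22) and Zfp746 (0.20), which were higher. Zfp644, Zfp687, Zfp827, Zfp830 and Zfp992 had log2 fold changes between -0.04 and 0.10 and passed neither fit.

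Genes that act with KRAB proteins were counted as a separate list of 33 co-repressor and silencing genes, all tested. In input 2 fell and 2 rose after RAM siRNA, or 12.1% where 12.9% of all genes were called. With the block 6 were lower and 4 higher, or 30.3% beside 39.3% of all genes, the added genes being Cbx3, Cbx5, Chaf1a and Dnmt1, which were lower, and Chd4 and Dnmt3a, which were higher. Suv39h2, a histone H3 lysine 9 methyltransferase, fell from 32.6 ± 2.06 to 25.1 ± 1.17 CPM (log2 fold change -0.32, SE 0.07, adjusted p = 0.0149, edgeR). Uhrf1, which guides maintenance DNA methylation, fell from 295.8 ± 20.4 to 220.6 ± 24.0 CPM (log2 fold change -0.37, adjusted p = 0.0133). Dnmt3l, a cofactor of de novo DNA methyltransferases, rose from 98.5 ± 17.1 to 139.6 ± 25.8 CPM (log2 fold change 0.56, adjusted p = 0.0186), and Mphosph8, a subunit of the HUSH silencing complex, from 30.1 ± 2.83 to 36.4 ± 1.95 CPM (log2 fold change 0.33, adjusted p = 0.0163). Trim28 had 1024 ± 95.9 CPM in control input and 993.1 ± 108.8 CPM after RAM siRNA, a log2 fold change of 0.01 (SE 0.09), not past the threshold, whose sign depended on the filter and scaling.

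In polysomes 0 of 154 members were lower and 0 were higher after RAM siRNA, and 0.0234% of all genes were lower (edgeR's quasi-likelihood test, adjusted p under 0.05). At an unadjusted p under 0.05 the members counted 3 lower and 2 higher, where 1152 of 12805 genes passed, and DESeq2 called 0. With the replicate block 5 were lower, Zfp787, Zfp800, Zfp819, Zfp839 and Zfp874b, and Zfp667 was higher, beside 4.97% and 9.68% of all genes. Zfp819, a KRAB protein of ESCs and germ cells, had 29.6, 28.1, 34.7 and 36.2 CPM in control polysomes and 23.4, 22.2, 23.4 and 21.9 CPM after RAM siRNA. The groups did not overlap (log2 fold change -0.47, SE 0.15, adjusted p = 0.348 without and 0.0140 with the block, edgeR). In input it had 25.5 ± 3.68 and 22.2 ± 2.46 CPM. Zfp874b, which fell in input, had 7.90 ± 0.584 CPM in control polysomes and 5.59 ± 0.874 CPM after RAM siRNA (log2 fold change -0.47, adjusted p = 0.451 without and 0.0330 with the block, edgeR). Zfp605 and Zfp652 had log2 fold changes of -0.24 and -0.37 in polysomes, and Zfp953 of 0.07, none past the threshold in either fit. Zfp667 had 3.90 ± 0.402 CPM in control polysomes and 5.73 ± 0.889 CPM after RAM siRNA (log2 fold change 0.59, adjusted p = 0.0227 with the block, edgeR). The next members by p in this direction, Zfp964 and Zfp711, had log2 fold changes of 0.55 and 0.54 and passed neither fit.

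The change of polysomes relative to input after RAM siRNA was past the threshold for 0 members by edgeR, whichever way the block was set. A block within each fraction called 0.0156% of all genes lower, and the other fits 0. At an unadjusted p under 0.05, 3 members were lower and 0 higher (1.95%), against 0.781% of all genes. The members' median was -0.05 and that of all genes 0.0013. A negative value was found for 104 of 154 members (67.5%), for 129 of 187 Zfp genes numbered under 600 (69.0%) and for 49.7% of all genes. These values are from the fit without a block. With the block within each fraction, 5.84% of members and 4.97% of all genes had an unadjusted p under 0.05. Negative values then made up 68.2% and 55.8%, with medians of -0.05 and -0.02. Without a block the smallest p was that of Zfp839. It had 10.2 ± 1.12 CPM in control polysomes and 7.38 ± 1.63 CPM after RAM siRNA, where input had 15.9 ± 1.37 and 16.6 ± 1.15 CPM. Its difference of log2 fold changes was -0.61 (SE 0.21, unadjusted p = 0.00922, adjusted p = 1.00, edgeR). The smallest p in the other direction was that of Zfp667, at 0.39 (SE 0.23). DESeq2 also called 0 members. In these bulk libraries a lower level per cell and fewer cells that express a gene cannot be told apart.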

How the data were processed

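The authors mapped paired reads of 75 bases to GRCm38 with STAR 2.5.1b, counted them per Ensembl gene with htseq-count, and deposited raw counts per gene for 16 libraries. Strand and overlap settings and the annotation release are not given in the sources used here. Symbols came from the gene name table, in which 495 of 46983 genes had none. The 12805 genes with at least 1 CPM in at least 10 libraries were fitted by edgeR 4.0.16 (R 4.3.3; TMM, quasi-likelihood test, Benjamini-Hochberg over all genes tested, threshold 0.05). A comparison within a fraction or within control cells used its 8 libraries, and the change of polysomes relative to input all 16. The main fits had no replicate factor, since the study's methods name none. The study's own numbers of genes down and up after RAM siRNA are nearer to those with a replicate block (2433 and 2595) than to those without it (761 and 890). Same-numbered libraries deviated together from their group means over 9132 genes (r between 0.402 and 0.798 in input, 0.625 and 0.944 in polysomes, 0.237 and 0.569 between the control fractions), and the study describes 4 independent occasions, so the replicate number as a block is given beside results it changes. CPM values are mean and SD of 4 libraries. Alternatives were DESeq2 1.42.0, RLE scaling, 2 other filters, a single fit, a threshold of 0.01, each library left out and, chosen after seeing the data, scaling by total counts. In simulated counts for the 12805 genes of the input comparison, the fit recovered 73.1% of genes changed 1.5-fold and 100.0% of those changed 2-fold, and for polysome over input 28.4% and 89.6%. Same-numbered libraries were not simulated to vary together. Members' input changes lay between -0.38 and 0.52 on the log2 scale, less than 1.5-fold, a size the simulation did not cover.

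Members were named by rule: those past the threshold in input with the same direction in 4 pairs, the 3 smallest p in each direction in polysomes, the 5 largest polysome over input values in each direction, the smallest p for the relative change, the 5 highest levels, 26 genes with known roles or clusters (24 of them tested members), those at the edge of the level rule, Ramac, Rnmt and Trim28, and co-repressor genes past the threshold. Other genes were picked with their values known. The members, lists and motif were chosen with earlier results of these data known. Positions, exon lengths and open reading frames came from GENCODE (GRCm38), with the longest frame of each gene's protein-coding transcripts searched for C2H2 and KRAB patterns. Intervals are standard errors of the fit, and the libraries of 1 line on 4 occasions set the spread.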

Additional observations from a re-analysis of the deposited data

Results flagged for a closer look

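For members named by rule for a comparison, and for the share of a library taken by all members, 114 groups of 4 libraries were examined. Of these, 4 had a library whose gap to the nearest of the others passed Dixon's 95% critical value. Members picked with their values known, such as Zfp982, were not examined. Chance gives about 1 such group in 20. Zfp706 had 147.1 CPM in RAM siRNA input replicate 4 and between 111.4 and 115.7 CPM in the others. Zfp981 had 39.3 CPM in the same library and between 45.5 and 46.2 CPM in the others. Zfp667 had 3.29 CPM in control polysome replicate 3 and between 4.07 and 4.13 CPM in the others. Zfp839 had 8.59 CPM in control polysome replicate 4 and between 10.58 and 10.97 CPM in the others. The change after RAM siRNA differed between polysomes and input for 0 members by edgeR's test of the difference, and for 3 at an unadjusted p under 0.05 in the fit without a block.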

How the results depend on the processing

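Members lower in input, 4 in the fit without a block, numbered 1 at an adjusted p under 0.01, 19 with the replicate block and 0 with all 16 libraries in one fit, and members higher in input, 0 without a block, numbered 2 without a filter, 1 with the filter of a mean of 10 input counts, 12 with the replicate block and 2 by DESeq2. In polysomes the block gave 5 lower and 1 higher, and all 16 libraries in one fit gave 2 lower. Members higher in polysomes than in input numbered 2 at an adjusted p under 0.01 and 2 with scaling by total counts. Leaving out each library in turn gave 1 to 6 lower and 0 to 5 higher in input (the highest of each without RAM siRNA replicate 4), medians between -0.0355 and 0.0153 in input (the highest without RAM siRNA replicate 4) and between -0.0836 (without RAM siRNA replicate 2) and 0.0676 in polysomes, and 92 to 105 lower and 2 to 5 higher in polysomes than in input. Without a filter the median of all genes in polysomes over input moved to -0.34 and that of the members to -0.49. The block gave 115 in place of 106 members lower in polysomes than in input. Reversed signs, all of values not past the threshold, were those of Trim28 in input (-0.0104 with total-count scaling, -0.0150 without a filter, -0.0043 with the filter of mean counts; -0.0493 to 0.0653 with a library left out), Zfp711 in input (-0.0025 with total-count scaling, -0.0062 without a filter; -0.1500 to 0.2131), and, for polysomes over input, Zfp830 (-0.0272 with total-count scaling; -0.0194 to 0.1214), Zfp990 (-0.0826 with total-count scaling, -0.0082 with the block; -0.0623 to 0.1271) and Zfp979 (0.0973 without a filter, 0.0705 with the filter of mean counts; -0.0729 to 0.0050). With a library left out, signs in input also reversed for Zfp704 (-0.0781 to 0.0798), Zfp809 (-0.0156 to 0.0871), Zfp827 (-0.0983 to 0.0449), Zfp830 (-0.1200 to 0.0171), Zfp980 (-0.0045 to 0.1905), Zfp981 (-0.0380 to 0.1782) and Zfp992 (-0.0994 to 0.0220). The cause was not tested. Of the values of single genes under the alternatives, 1031 kept direction and side of the threshold, 65 lost and 24 gained a call. Lower-level members rest on few counts, and the 39 with 10% or more of shared windows depend on how reads of similar genes were counted.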
